A study of Mus musculus with 4 samples.

Results

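The mRNA levels of 10 genes of the antioxidant defense were compared in the medial prefrontal cortex (mPFC) between mice with depression-like behaviors after chronic unpredictable mild stress (CUMS) and control mice. The genes were picked out by symbol, and all 10 were found among the 17778 genes of the table. Of these, 9 encode enzymes, namely the superoxide dismutases Sod1, Sod2 and Sod3, catalase (Cat), the glutathione peroxidases Gpx1, Gpx3, Gpx4 and Gpx8, and the peroxiredoxin Prdx6. The last gene, Txnip, encodes a protein that binds thioredoxin and is not an enzyme. The mice were juvenile males, given as C57BL/6 in the labels and as C57BL/6J in the methods of the study. Those of the CUMS group had lived for weeks with social isolation and randomly changed mild stressors, and only animals with changes in the sucrose preference, Y-maze and forced swimming tests were used, so that stress and selection for a response go together in this group. Control mice lived without these stresses. Each group had 2 libraries of poly(A) RNA, made from both sides of the mPFC, and the sources used here do not state whether a library came from 1 mouse.

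The deposited value of a gene was 1 mean per group in RPKM, a read number scaled for the length of the gene and the size of the library. A value of a single library was not given, and so no difference below could be tested or set against the spread between mice. In place of a test, each log2 ratio (CUMS over control) is given with a 95% counting interval. The interval rests on fragment numbers estimated from the steps between low RPKM values, about 7385524 fragments for a library of the control group and 7440476 for a library of the CUMS group, and covers counting error only. These numbers are lower than the read numbers the study gives, for a reason that was not resolved, and an interval is narrower or wider where the true depth is higher or lower. Differences were read against the 14257 genes that reached 0.5 RPKM in control or in CUMS. All 10 genes passed this minimum. As mPFC was sequenced in bulk, a lower value can come from fewer cells of a type or from less RNA per cell, which cannot be told apart.

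Antioxidant enzymes remove reactive oxygen species in steps. Superoxide dismutases turn superoxide, a by-product of respiration, into hydrogen peroxide. Catalase then splits hydrogen peroxide into water and oxygen in peroxisomes, while glutathione peroxidases and peroxiredoxins reduce hydrogen peroxide and lipid peroxides with electrons from glutathione or thioredoxin. The brain uses much oxygen and is rich in unsaturated lipids, and Gpx4, which repairs oxidized membrane lipids, is needed for the survival of neurons.

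Glutathione peroxidases differ in their catalytic residue. Gpx1, Gpx3 and Gpx4 use selenocysteine, which is encoded by TGA, a codon that otherwise ends translation. The coding sequence around this codon is shown for the 4 glutathione peroxidases because the level of the single member that passed 1.5-fold, Gpx3, is set against the others below. Capitals mark the annotated selenocysteine codon, at chr9:108339451-108339453 in Gpx1, chr11:54907256-54907258 in Gpx3 and chr10:80054737-80054739 in Gpx4 (GRCm38, plus strand), with 4 codons on either side. In Gpx8, capitals mark the codon in the same place of the most similar window in its reading frame, at chr13:113045661-113045663 on the minus strand.
Gpx1: gtcgcgtctctcTGAggcaccacgatc
Gpx3: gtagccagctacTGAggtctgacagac
Gpx4: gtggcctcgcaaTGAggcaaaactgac
Gpx8: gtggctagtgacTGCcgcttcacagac
Gpx8 has the cysteine codon TGC where the others have TGA. Outside the marked codon, Gpx3 shared 16 of 24 bases with Gpx8, 13 with Gpx4 and 10 with Gpx1. The Gpx8 window was picked among 201 codons for the bases it shares with the other windows. Its count therefore cannot be ranked against those of Gpx4 and Gpx1.

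The question of the study was which mRNAs differ in the mPFC of depression-like mice. In the antioxidant group, Gpx3, the secreted glutathione peroxidase, was lower in CUMS by more than 1.5-fold, whereas the other genes lay within 1.5-fold of the control mean. The study already lists Gpx3 among its lowered genes from these same samples, with a probability just above its cut-off. The difference of Gpx3 given here is therefore no independent evidence. Txnip was higher by 1.44-fold, the largest difference in that direction, and catalase was higher by 1.19-fold. The abundant enzymes Gpx4, Sod1, Prdx6, Gpx1 and Sod2 differed by at most 1.12-fold. Thus 1 of 10 genes was past 1.5-fold in the lower direction, where the share over all 14257 genes was 4.42%, and 0 of 10 were past it in the higher direction, where the share was 2.78%. Of the 10 genes, 5 were lower and 5 were higher in CUMS, with a median log2 ratio of -0.03. Over all genes 53.2% were lower, and their median log2 ratio was -0.02. Of the 9397 genes that reached 5 RPKM, 52.3% were lower. Prdx6 lay so close to 0 that its side depends on the scaling (log2 ratio 0.01 as deposited and -0.002 after an equal total was set).

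**Figure D1:**
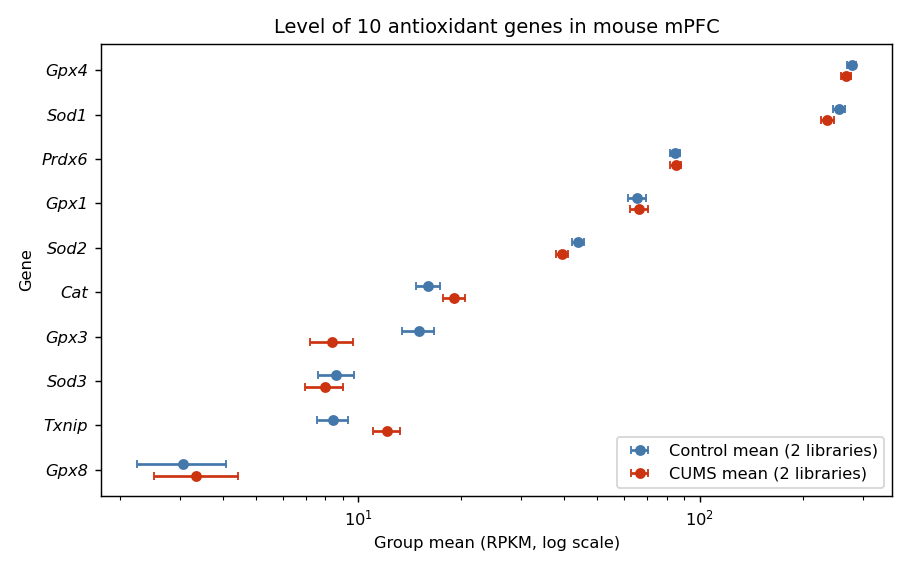
Group means of the 10 genes in RPKM on a log scale, control in blue and CUMS in red, each the mean of 2 libraries; bars are 95% counting intervals and say nothing of differences between mice. The points of a gene lie close together for 8 genes and far apart for Gpx3 (15.0 and 8.38 RPKM) and Txnip (8.42 and 12.1 RPKM). Among the 8, the bars of catalase and of Sod2 do not overlap.

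Of the superoxide dismutases, Sod1 and Sod2 stood high in the mPFC, whereas Sod3 lay near the middle of all genes. Sod1 (gene 20655, chromosome 16, 90220762 to 90226333), the copper-zinc enzyme of the cytosol, had 256 RPKM in control and 236 RPKM in CUMS, and its control level exceeded that of 98.5% of genes. Its log2 ratio was -0.12 (counting interval -0.20 to -0.03). Sod2 (gene 20656, chromosome 17, 13007839 to 13018119), the manganese enzyme of mitochondria, had 44.0 RPKM in control and 39.4 RPKM in CUMS, a log2 ratio of -0.16 (-0.24 to -0.08). Both were slightly lower in CUMS, with intervals below 0 at the estimated depth. Sod3 (gene 20657, chromosome 5, 52363804 to 52369738), which is secreted and binds to the extracellular matrix, had 8.60 RPKM in control and 7.96 RPKM in CUMS, and its log2 ratio of -0.11 (-0.37 to 0.14) was not distinguishable from 0 at this depth. Sod1 mRNA was 5.82 times the level of Sod2 in control and 6.00 times in CUMS. Together the 3 dismutases reached 309 RPKM in control mice and 284 RPKM in CUMS mice.

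Catalase (gene 12359, chromosome 2, 103453904 to 103485153) had 16.0 RPKM in control and 19.0 RPKM in CUMS, a log2 ratio of 0.25 (0.09 to 0.41). It was the enzyme with the largest positive ratio. Of the genes with at least 0.5 RPKM, 11.1% had a higher ratio. Catalase is also abundant in red blood cells. Of the red blood cell markers, 6 of 7 reached 0.5 RPKM and all 6 were past 1.5-fold higher in CUMS, of which Hbb-b2 rested on 1 control fragment, with the sum over the 7 markers at 342 RPKM in control and 595 RPKM in CUMS. Most of these 6 genes are named by the study from these same samples, so that their count is no independent evidence. The part of red blood cells in the value of catalase was not tested.

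The glutathione peroxidases spanned the widest range of levels. Gpx4 (gene 625249, chromosome 10, 80047166 to 80056439) was the highest of the 10 genes, with 279 RPKM in control and 268 RPKM in CUMS, a log2 ratio of -0.06 (-0.12 to 0.01). Gpx1 (gene 14775, chromosome 9, 108339080 to 108340342), the cytosolic enzyme, had 65.5 RPKM in control and 66.2 RPKM in CUMS, a log2 ratio of 0.02 (-0.11 to 0.14). Both intervals included 0. Gpx8 (gene 69590, chromosome 13, 113042757 to 113046430), a membrane protein of the endoplasmic reticulum, was the lowest, with 3.07 RPKM in control and 3.35 RPKM in CUMS. It rested on 46 and 51 estimated fragments, and its interval of -0.47 to 0.75 around a log2 ratio of 0.13 was too wide for a statement on direction.

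Gpx3 (gene 14778, chromosome 11, 54902854 to 54910387), which is released from cells and acts in extracellular fluid, had 15.0 RPKM in control mice and 8.38 RPKM in CUMS mice. The control mean was 1.79 times the CUMS mean, with a log2 ratio of -0.84 (-1.11 to -0.58) on 336 and 189 estimated fragments. Only 2.29% of genes of at least 0.5 RPKM, and 0.49% of the genes of at least 5 RPKM, had a lower ratio, and 1.28% of the latter were past 1.5-fold lower. Gpx3 mRNA was 22.9% of the Gpx1 level in control and 12.6% in CUMS. In the order of levels it stood in the seventh place in control, beside catalase, and in the eighth in CUMS, beside Sod3. The secreted enzymes Gpx3 and Sod3 together had 23.6 RPKM in control mice and 16.3 RPKM in CUMS mice. Most of this difference lay in Gpx3 (-6.64 RPKM, against -0.645 RPKM for Sod3). The 3 selenocysteine enzymes together had 359 and 342 RPKM, since Gpx4 made up most of that sum.

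Markers of the septum and hypothalamus and of ependymal cells were mostly lower in CUMS along with Gpx3. All 12 genes of the septum and hypothalamus list were past 1.5-fold lower, with a summed level of 145 RPKM in control and 46.0 RPKM in CUMS. Of the 7 ependymal genes, 5 were past 1.5-fold lower (summed level 20.9 and 12.6 RPKM). Of the 8 choroid plexus genes, 4 reached 0.5 RPKM and 3 of these were past 1.5-fold lower, with a summed level of 6.14 and 3.32 RPKM over 7 measured genes. The defining choroid plexus gene Ttr was at 0.06 RPKM in control and listed at 0.01, the value that stands for 0, in CUMS. Of the others under 0.5 RPKM, Kcnj13 was listed at 0.01 in control and had 0.415 RPKM in CUMS, and Folr1 had 0.24 and 0.29 RPKM. The astrocyte list had 7 of 12 genes lower and 5 higher, 1 of them past 1.5-fold lower, and a summed level of 1778 and 1606 RPKM. The log2 ratios ran from -0.59 (Fgfr3) to 0.12 (Aqp4) among astrocyte genes, from -2.55 (Tmem212) to 0.37 (Enkur) among ependymal genes and from -1.90 (Aqp1) to -0.08 (Kl) among choroid plexus genes of at least 0.5 RPKM. The part of these cells in the value of Gpx3 was not tested. Most septum and hypothalamus genes of the list are named by the study from these same samples, so that their count is no independent evidence.

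Prdx6 (gene 11758, chromosome 1, 161240112 to 161251210) is a peroxiredoxin with a single catalytic cysteine that also repairs phospholipids and is known from astrocytes. It had 84.5 RPKM in control mice and 84.8 RPKM in CUMS mice, the ratio closest to 1 among the 10 genes. Its log2 ratio of 0.01 had an interval of -0.07 to 0.08.

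Txnip (gene 56338, chromosome 3, 96557957 to 96561857) encodes an alpha-arrestin that binds reduced thioredoxin and limits glucose uptake. It had 8.42 RPKM in control and 12.1 RPKM in CUMS, a log2 ratio of 0.52 (0.32 to 0.72) on 348 and 504 estimated fragments. The difference did not reach 1.5-fold. A higher ratio was found in 3.30% of genes of at least 0.5 RPKM and in 0.447% of genes of at least 5 RPKM, of which 0.319% were past 1.5-fold higher. Txnip moved from the ninth to the seventh place in the order of levels, and its mRNA was 21.7% of the level of thioredoxin (Txn1) in control and 27.3% in CUMS. Txnip shares 606 of its 3123 annotated exon bases with the antisense gene Gm15441 (1.81 RPKM in control and 2.16 RPKM in CUMS), and since the use of strand in counting was not stated, reads of both genes could have been exchanged.

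Arrdc4, the alpha-arrestin most related to Txnip, was past 1.5-fold higher in CUMS, with 3.05 RPKM in control and 4.90 RPKM in CUMS (log2 ratio 0.68, interval 0.30 to 1.06). The other measured alpha-arrestins Arrdc1, Arrdc2 and Arrdc3 had log2 ratios of 0.005, 0.01 and -0.17. Txnip and Arrdc4 are known targets of the glucose-sensing factors MondoA and ChREBP, which bind with Mlx to paired E-boxes. The genes of these factors, Mlxip, Mlxipl and Mlx, had log2 ratios of -0.03, -0.28 and 0.08. A pair of the letters CACGNG, a looser pattern than an E-box, separated by 5 bases was searched on both strands. The search ran from 250 bases before to 50 bases after the start of a gene. This pair was present in 16 of 32851 RefSeq promoters (0.0487%). Txnip is among them, but as it was already known as a target, its match is no independent evidence. Its match starts 85 bases before the start of the gene and is shown with capitals for the match and 4 bases on either side (chr3:96557868-96557892, GRCm38.p6, plus strand) because Txnip had the highest ratio of the 10 genes.
Txnip: tgtgCACGAGGGCTGCACGAGcctc
The window of Arrdc4 held no match to this pair. The core letters of the antioxidant response element, TGACNNNGC, to which the factor Nrf2 binds, were present in 12.4% of the promoters and in 1 of 11 promoters of the 8 members that had one in the RefSeq table. That promoter belongs to Sod1, with the match on the strand opposite to the gene. It is shown in the same way, within chr16:90220702-90220718.
Sod1: gtggGCGTGGTCAgact
The window of Arrdc4, which is not a member, also held the core letters TGACNNNGC, on the strand opposite to the gene. A match of letters describes the sequence and does not show that a factor was bound.

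**Figure D2:**
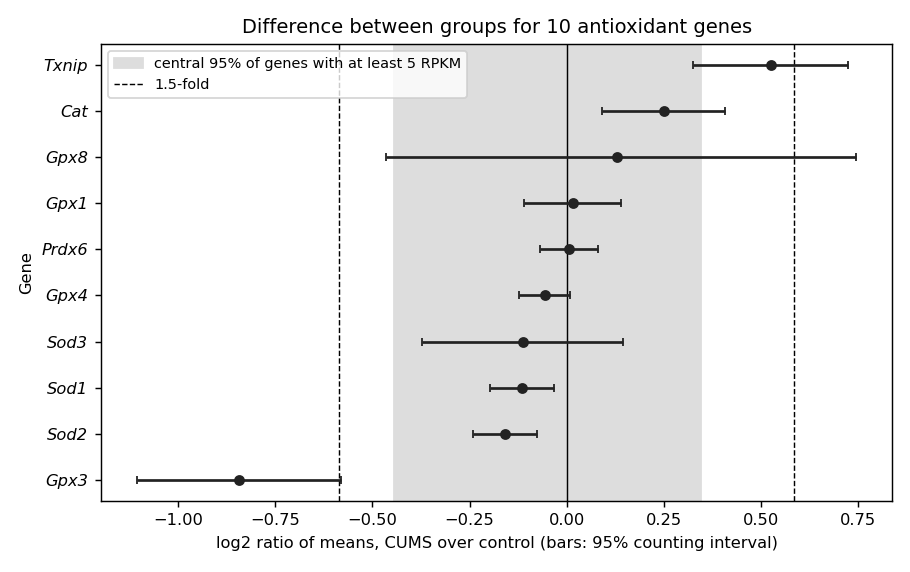
Log2 ratio (CUMS over control) of each gene, with 95% counting intervals as bars; the grey band holds the central 95% of genes with at least 5 RPKM and the dashed lines mark 1.5-fold. Gpx3 (-0.84) and Txnip (0.52) lie outside this band and the other 8 genes inside it; the central 95% of all genes of at least 0.5 RPKM is wider (-0.79 to 0.62) and holds Txnip.

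The counting interval left out 0 in 5 of the 10 genes. Gpx3, Sod2 and Sod1 were on the lower side and Txnip and catalase on the higher side. With 0.5 times the estimated depth the lower side held 2 genes and with 2 times this depth 4 genes, while the higher side held 2 in both cases. Over all genes of at least 0.5 RPKM, 16.8% had an interval wholly below 0 and 12.5% wholly above, and among genes of at least 5 RPKM these shares were 19.3% and 15.9%. Abundant genes have narrow intervals, so that this count reflects the read numbers of the genes as well as their differences. Summed over the 10 genes, the level came to 779.95 RPKM in control mice and 745.57 RPKM in CUMS mice, a log2 ratio of -0.07. The difference (CUMS minus control) was -19.8 RPKM for Sod1, -10.8 RPKM for Gpx4 and -6.64 RPKM for Gpx3, and it was 3.69 RPKM for Txnip and 3.03 RPKM for catalase.

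**Figure D3:**
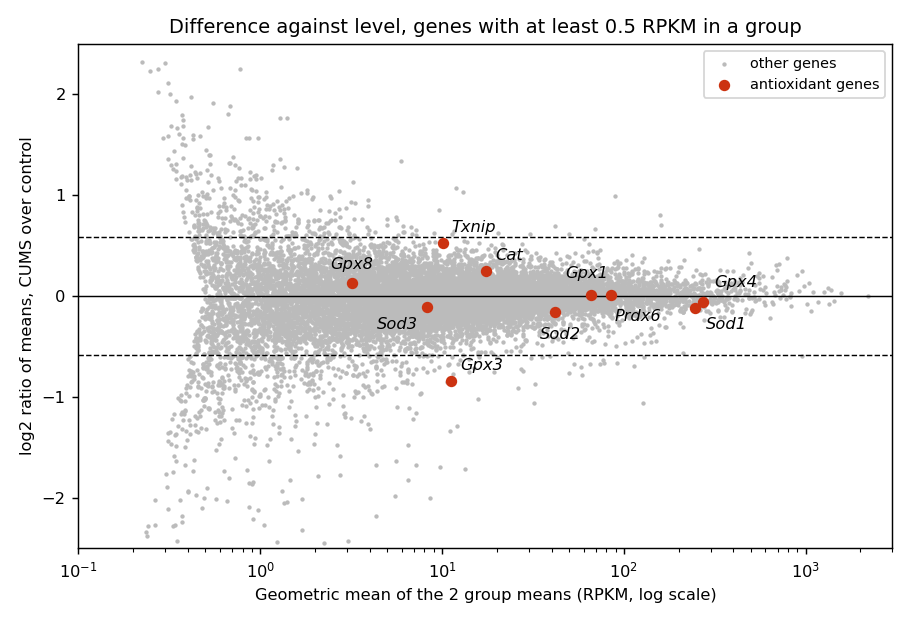
Each gene with at least 0.5 RPKM in a group, by the geometric mean of its 2 group means (RPKM, log scale) and its log2 ratio of CUMS over control; antioxidant genes are red, dashed lines mark 1.5-fold, and 51 genes lie beyond the vertical axis. The spread of ratios narrows with the level, and Gpx3 and Txnip lie at the edge of the cloud near 10 RPKM.

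The order of levels was largely the same in both groups. Gpx4 was followed by Sod1, Prdx6, Gpx1, Sod2 and catalase, and Gpx8 was last. In control, catalase and Gpx3 could not be ordered within counting error, nor could Sod3 and Txnip. In CUMS, this was so for Gpx3 and Sod3, and Txnip stood clear above Gpx3. The glutathione peroxidases made up 46.4% of the summed RPKM in both groups. The dismutases made up 39.6% in control and 38.1% in CUMS, Prdx6 10.8% and 11.4%, catalase 2.05% and 2.55%, and Txnip 1.08% and 1.62%.

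The other genes of these pathways gave 5 differences past 1.5-fold. Of 127 genes in 15 lists, 124 were measured and 116 reached 0.5 RPKM. Of these 116, 2 were past 1.5-fold lower and 3 past it higher. These 5 genes were 4.31% of the 116, a share that counts lower and higher genes. Over all 14257 genes, 630 were past 1.5-fold lower (4.42%) and 396 past it higher (2.78%). The 4.31% is not comparable with either of these shares alone. The median log2 ratio of the 116 genes was -0.02. The genes past 1.5-fold were Atp7a, a copper transporter (0.96 and 0.63 RPKM), and Noxo1, an organizer of NADPH oxidase (0.84 and 0.55 RPKM), which were lower, and Gstt2, a glutathione transferase (1.02 and 1.70 RPKM), Ncf4, an NADPH oxidase subunit (0.39 and 0.65 RPKM), and Arrdc4, which were higher. The intervals of Noxo1, Gstt2 and Ncf4 included 0. All 5 genes had less than 5 RPKM in both groups.

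In the thioredoxin branch, 0 of 6 peroxiredoxin and sulfiredoxin genes were past 1.5-fold, and their log2 ratios ran from -0.17 for Srxn1, which restores oxidized peroxiredoxins, to 0.17 for Prdx4 of the endoplasmic reticulum. Among 9 thioredoxin, reductase and glutaredoxin genes, 0 were past 1.5-fold, and the extremes were Glrx (-0.23) and Txnrd3 (0.52). In the glutathione branch, 0 of 10 genes of synthesis and recycling were past 1.5-fold. There the glutathione-degrading enzyme Chac1 had the lowest ratio (-0.42) and Chac2 the highest (0.13). The rate-limiting subunit Gclc had 16.1 RPKM in control and 17.0 RPKM in CUMS. Of 16 glutathione transferases, Gstt2 alone was past 1.5-fold and Gstt3 had the lowest ratio (-0.49). Of the other glutathione peroxidases, Gpx7 alone reached 0.5 RPKM, with 3.48 RPKM in control and 2.88 RPKM in CUMS (log2 ratio -0.28).

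In the selenium branch, 0 of 7 genes that make selenocysteine and 0 of 13 other selenoproteins were past 1.5-fold. Selenoprotein P (Sepp1 in the table), which carries selenium between cells and is secreted like Gpx3, had the lowest ratio of these 13, with 135 RPKM in control and 102 RPKM in CUMS (log2 ratio -0.41, interval -0.48 to -0.34). Msrb1, a methionine sulfoxide reductase, had their highest ratio (0.41). Among the synthesis genes, Secisbp2 was lowest (-0.15) and Pstk highest (0.40).

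Among regulators and targets of Nrf2, 0 of 8 regulators and 0 of 15 targets were past 1.5-fold. The regulators ranged from -0.33 for Bach2 to 0.02 for Keap1, and Nfe2l2, the gene of Nrf2 itself, had 6.14 RPKM in control mice and 5.88 RPKM in CUMS mice. The targets ranged from -0.34 for Nqo1 to 0.35 for Osgin1, with a median of -0.01. All 3 metallothioneins, which bind zinc and copper and scavenge radicals, were lower without passing 1.5-fold, from -0.24 for Mt1 to -0.10 for Mt2. Ccs, the chaperone that loads copper into Sod1, had a log2 ratio of -0.13, and the copper chaperone Atox1 had the highest ratio of the copper list (0.32). Peroxisome assembly genes, which build the organelle of catalase, had 0 of 15 past 1.5-fold, and Pex2 had the lowest ratio (-0.25). Of the 12 NADPH oxidase genes, 6 reached 0.5 RPKM, and both directions had 1 gene past 1.5-fold.

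**Figure D4:**
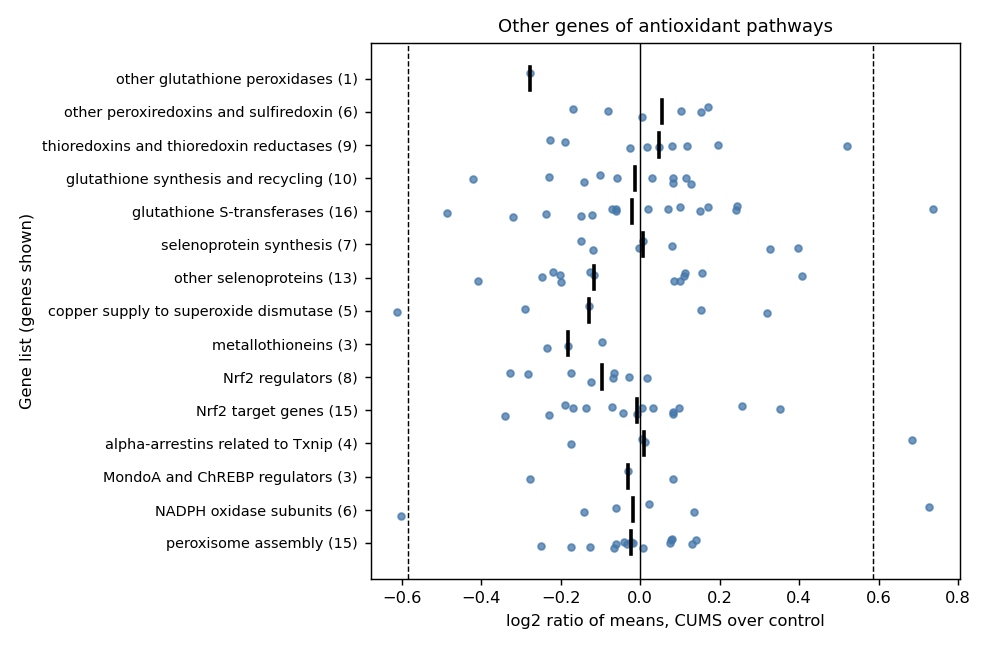
The log2 ratio of CUMS over control for the genes of 15 pathway lists that reached 0.5 RPKM in a group, 1 point per gene, with the median of a list as a black bar and 1.5-fold as dashed lines; the number of genes is in brackets. The medians lie between -0.28 and 0.05, and 5 genes lie beyond 1.5-fold.

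The excitatory cortical neuron list summed to 1619 RPKM in control and 1939 RPKM in CUMS, with 10 of 12 genes higher and 0 past 1.5-fold. Most of this sum came from Camk2a (828 and 958 RPKM) and Slc17a7 (635 and 791 RPKM). The lists that differed most were those of the septum and hypothalamus, of choroid plexus and ependymal cells, of oligodendrocytes, of GABAergic neurons and of blood. Mature oligodendrocyte genes were past 1.5-fold lower in 4 of 12 (summed level 1978 and 1352 RPKM, from -0.94 for Ermn to 0.04 for Opalin), and GABAergic neuron genes in 7 of 12 (830 and 709 RPKM). The latter ran from -0.88 for Gad2, an enzyme of GABA synthesis, to 0.51 for Vip, and the interneuron markers Pvalb (0.19) and Sst (0.05) were also on the higher side. Oligodendrocyte precursor genes had 0 of 6 past 1.5-fold, with 5 lower and 1 higher (median -0.31). Striatum genes had 1 of 11 past it, and all 11 were lower, 10 of them with intervals below 0 (median -0.30). The neutrophil genes summed to 0.63 RPKM in control, where 2 genes were listed at 0.01, and to 8.71 RPKM in CUMS. Microglia (0 of 11), mural (0 of 9), endothelial (1 of 12, Cldn5 at -0.61) and meningeal fibroblast genes (1 lower and 2 higher of 10) had medians of 0.03, -0.09, -0.12 and 0.08. Several genes past 1.5-fold in these lists, such as Mbp, Gad1, Hba-a1 and S100a8, are named by the study from these same samples. Their counts are therefore no independent evidence. The part of these shifts in the values of the antioxidant genes was not tested.

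**Figure D5:**
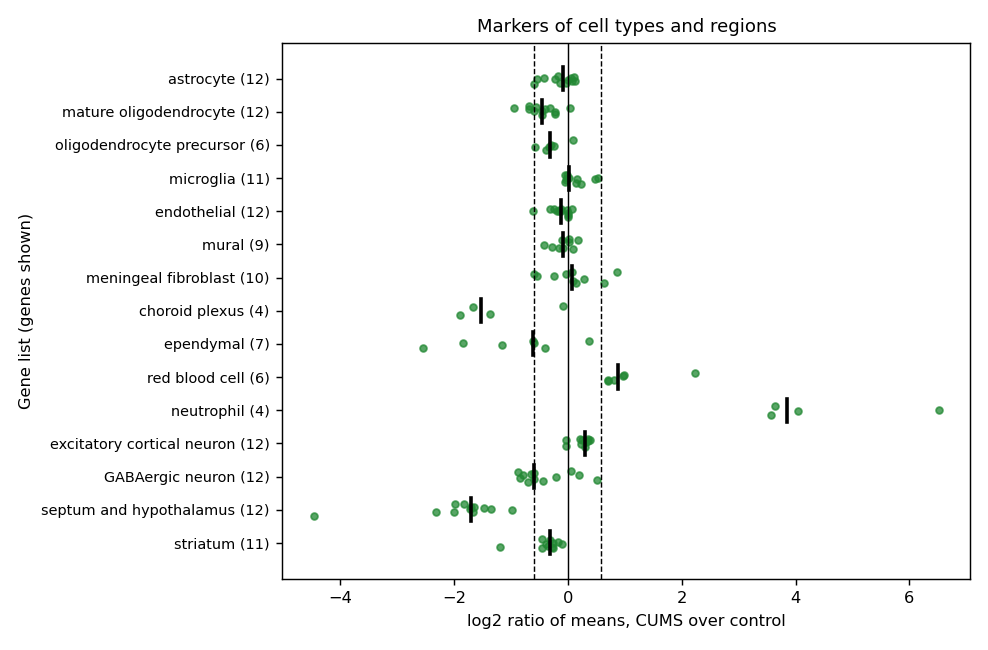
The log2 ratio of CUMS over control for markers of 15 cell types and regions that reached 0.5 RPKM in a group, 1 point per gene, with medians as black bars and 1.5-fold as dashed lines. Septum and hypothalamus genes all lie below the lower line and red blood cell genes all lie above the upper line; points of neutrophil genes rest on control values at or near 0 and show a direction only.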

How the data were processed

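Sequencing gave paired reads of poly(A) RNA. The authors trimmed the reads with SolexaQA, aligned them to mm10 with TopHat 1.0.12 and Bowtie 0.11.3 (per the labels), counted uniquely aligned reads per gene and deposited the RPKM averaged over the 2 libraries of a group. Counting tool, annotation and use of strand are not given in the sources used here. A value of 0.01 stands for 0. The deposited table also holds a log2 ratio, a direction and a NOISeq probability of the authors, which were not used.

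Log2 ratios were computed from the 2 means without a pseudocount, and a difference was read as past the threshold at a fold above 1.5 with at least 0.5 RPKM in either group, after the thresholds of the study. Fragments were estimated as the product of mean and gene length divided by its step. The step was fitted between 20 and 200 on genes under 1000 bases with a product under 350. It was 67.7 RPKM x bases in control and 67.2 in CUMS. Whole multiples of the step (tolerance 0.15) were found for 86.5% of the 406 products tested in control and for 86.2% of the 392 tested in CUMS. If the libraries of a group were of unequal depth, or if 1 step is more than 1 fragment, the fragment numbers differ from these estimates. Intervals are exact Clopper-Pearson intervals for ratios and exact Poisson intervals for levels (SciPy 1.17.1, Python 3.11.15). The ratio intervals were tried on simulated Poisson counts with equal depth and 1 fragment per step. As the intervals assume the same, this trial checks the computation and not these assumptions. PCR duplicates could not be removed. Gene spans and promoters are from RefSeq on GRCm38.p6, exons and selenocysteine codons from GENCODE M21.

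All 10 members are named, and of the marker lists the genes with the highest or lowest ratio. Of each pathway list, at most 3 genes past 1.5-fold in a direction are named, and otherwise the highest and lowest ratio among genes of at least 0.5 RPKM. Other genes were named after their values were seen. The members and lists were chosen with earlier results of these data known. The alternatives were other scalings, pseudocounts, filters, folds and depths. Some results are not reported here.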

Additional observations from a re-analysis of the deposited data

How the results depend on the processing

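No paired analysis was possible because single libraries have no values here, only group means. This also left limma, edgeR, DESeq2 and fits without a library not run. The log2 ratios of the 10 genes stayed inside their counting intervals under all 4 scalings and pseudocounts (40 of 40 values), and Gpx3 ranged from -0.85 to -0.77. Of the members, 0 were past the fold in the lower direction with a fold above 2, and 1, Txnip, was past it in the higher direction with a fold above 1.2. Without Txnip, an alternative chosen after seeing the data, 1 enzyme had an interval above 0. Setting the median of all log2 ratios to 0 shifted each ratio by 0.015, and setting equal totals by -0.008.

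Pathway genes past 1.5-fold numbered 0 lower and 1 higher with a pseudocount of 0.5 RPKM, 0 and 0 with a pseudocount of 1 RPKM, 5 and 6 without a filter, and 0 and 0 among genes of at least 5 RPKM, by construction of the pseudocount and the filter. Marker genes past 1.5-fold among genes of at least 5 RPKM numbered 23 lower and 4 higher, against 35 and 12. The list medians stayed within 0.1 under alternatives in 163 cases and moved further in 14. The depth limits Gpx8 most, and differences between mice cannot be judged for any gene.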

Other observations

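The table annotates its genes with Gene Ontology terms, and these were read after the data had been seen. Of 17 genes of at least 0.5 RPKM with the term antioxidant activity, 1 was past 1.5-fold lower in CUMS and 0 were past it higher. Over all genes these shares were 4.42% and 2.78%. The gene past 1.5-fold was Nxn, which encodes nucleoredoxin, a thioredoxin-like regulator of Wnt signaling. It had 7.62 RPKM in control and 4.52 RPKM in CUMS (log2 ratio -0.75, counting interval -1.03 to -0.49). The globin Cygb of the same term had 30.2 and 26.2 RPKM (log2 ratio -0.21, interval -0.34 to -0.08). Of the others in no list used above, Pxdn, a peroxidase of the extracellular matrix, had 15.4 and 16.8 RPKM (log2 ratio 0.13, interval 0.03 to 0.23), and Txndc17 had 14.4 and 16.6 RPKM (0.21, -0.01 to 0.44). In all, 10 of the 17 genes were lower and 7 higher, where 53.2% of all genes were lower. Park7, which protects mitochondria, had 109 and 105 RPKM, with an interval of -0.15 to 0.06.

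The other terms share genes with this one and with each other. Peroxidase activity had 6 genes lower and 11 higher, with 2 past 1.5-fold lower and 0 past it higher. Hydrogen peroxide metabolic process had 8 lower and 12 higher, with 2 past 1.5-fold lower and 2 past it higher. Superoxide metabolic process had 7 lower and 5 higher, with 1 past 1.5-fold lower and 0 past it higher. The genes past 1.5-fold include the member Gpx3 and the globins Hba-a1 and Hba-a2. Over all genes 53.2% were lower, 4.42% were past 1.5-fold lower and 2.78% past it higher. Of 33 genes with the term response to oxidative stress, 0 were past 1.5-fold lower and 1 was past it higher. Here 14 genes were lower and 19 higher. In this term Ppargc1a, a coactivator of mitochondrial genes, had 5.05 and 3.68 RPKM (log2 ratio -0.46, interval -0.66 to -0.26).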
